A study of Mus musculus with 16 samples.

Results

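Malat1, Zfp503, Kcnc4, Tnfaip2, Shisa2, Ces1d and Cd24a were the 7 genes taken here because, in these same data, their signal stood further above gastrocnemius in triceps than that of most other genes. They were read as every probe set that the platform annotation gives to exactly 1 of these symbols, which gave 15 probe sets of 7729 in the table and 7 genes of the 4929 with a symbol of their own. Of the 15, 12 were bright enough on average (above log2 6.75, the 40th percentile of all probe sets) to enter the tests with 4637 probe sets in all. Because the difference between the muscles chose these genes, it is described below without a test, and tests are given only for the genotypes, which the choice did not use.

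The animals were female C57BL/6 mice aged 7 weeks, before the onset of symptoms. The SOD1-G93A mice carry human superoxide dismutase 1 with the G93A substitution and are a model of amyotrophic lateral sclerosis, in which motor neurons degenerate, and the non-transgenic mice (NTg) are their controls. The labels name neither the promoter of the transgene nor its copy number. Triceps, a muscle of the upper forelimb, and gastrocnemius, a calf muscle of the hindlimb, came from the same 4 mice of each genotype, so 16 Affymetrix arrays fall into 4 groups of 4: SOD1-G93A triceps, NTg triceps, SOD1-G93A gastrocnemius and NTg gastrocnemius. A value is the log2 signal of a probe set, the joint reading of several short probes for a transcript. Each of the 8 mice has its own triceps minus gastrocnemius difference.

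These genes come from unrelated families. Malat1 is a long noncoding RNA that stays in the nucleus, where it gathers in the speckles that store splicing factors. Zfp503 is a zinc finger protein that represses transcription during development, and Kcnc4 encodes a fast-inactivating voltage-gated potassium channel of the Kv3 class that helps to end action potentials. Tnfaip2, first found as a gene induced by tumour necrosis factor, is related to the exocyst and takes part in membrane protrusion. Shisa2 holds back the maturation of WNT and FGF receptors in the endoplasmic reticulum. Ces1d is a carboxylesterase that hydrolyses triacylglycerol, and Cd24a is a small surface glycoprotein with a lipid anchor, known from immature lymphocytes, red cell precursors and regenerating muscle.

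Some facts of the arrays touch every comparison of the muscles. Ckm (muscle creatine kinase) lay between 12.76 and 13.02 on 3 triceps arrays, NTg replicates 1 and 2 and SOD1-G93A replicate 2. It lay between 13.84 and 14.51 on the other 5 triceps arrays and between 13.97 and 14.71 on the 8 gastrocnemius arrays, so results are also given without these 3. Acta1 (skeletal actin) was low on the same 3 arrays, at 12.81 to 12.95, against 13.82 to 14.50 on the other triceps arrays and 14.06 to 14.69 in gastrocnemius. The summed linear signal of 21 fast fibre genes was likewise 120200 to 138600 there, against 217600 to 321000 and 249400 to 363700. The muscles themselves differed in fibre genes and in some matrix genes. All 17 tested slow fibre genes were below 0 in triceps minus gastrocnemius (median log2 difference -3.24). Of these, limma called 16 lower at an adjusted p under 0.05, against 2.11% of all tested probe sets. The summed linear signal of the slow fibre genes was 6883 to 17800 in triceps, against 30650 to 51510 in gastrocnemius. All 21 tested fast fibre genes were below 0 too (median -0.50), and 1 of them, Myh2 (fast myosin of oxidative fibres), was called at -1.71. The collagen gene Col1a1 fell by 1.31 and the tendon gene Fmod by 0.66, both called in limma but not without the 3 arrays (adjusted p = 0.0547 and 0.068). With the mouse as a term it was 0.0239 and 0.0182. Of 10 tested fibroblast genes 4 were above 0, among them Gsn at 0.41. The same held for 1 of 4 tested tendon genes, Kera at 0.55. Gsn and Kera were not called (limma adjusted p = 0.117 and 0.104, and 0.0185 and 0.0899 with the mouse term). Schwann cell markers were also lower in triceps (286 to 452, against 561 to 1502), with both tested markers called, Mbp and Pmp22. The part of these shifts in the values below was not tested, and in whole tissue fewer cells of a type and less RNA per cell cannot be told apart. Endogenous Sod1 does not check the labels, since no source says whether its mouse probes detect the human transgene.

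All 15 probe sets had a higher mean in triceps, and 110 of the 120 differences between the muscles of a mouse were above 0. The median of the 15 was 0.93 on the log2 scale, against 0.00 over all tested probe sets, of which 51% were above 0. In 7 of the 12 tested probe sets triceps was higher in 8 of 8 mice (4.4% of all tested probe sets), and in 3 of 12 the lowest triceps array was above the highest gastrocnemius array (0.388% of all). These shares follow from how the genes were chosen and support nothing by themselves. For scale, only 9 tested probe sets differed by more than 1 towards triceps, and 6 of them belong to these genes, while the median size of a difference in either direction was 0.163. Gpx3 (1.26), Prss23 (1.20) and Xist (1.11) were the other probe sets above 1. The genes do not form a clean top group: Hmgn1 (0.97), Fasn (0.94) and Cebpd (0.93) also ranked above both larger Cd24a differences (0.93), and a probe set of Clu came just below these at 0.91.

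**Figure D1:**
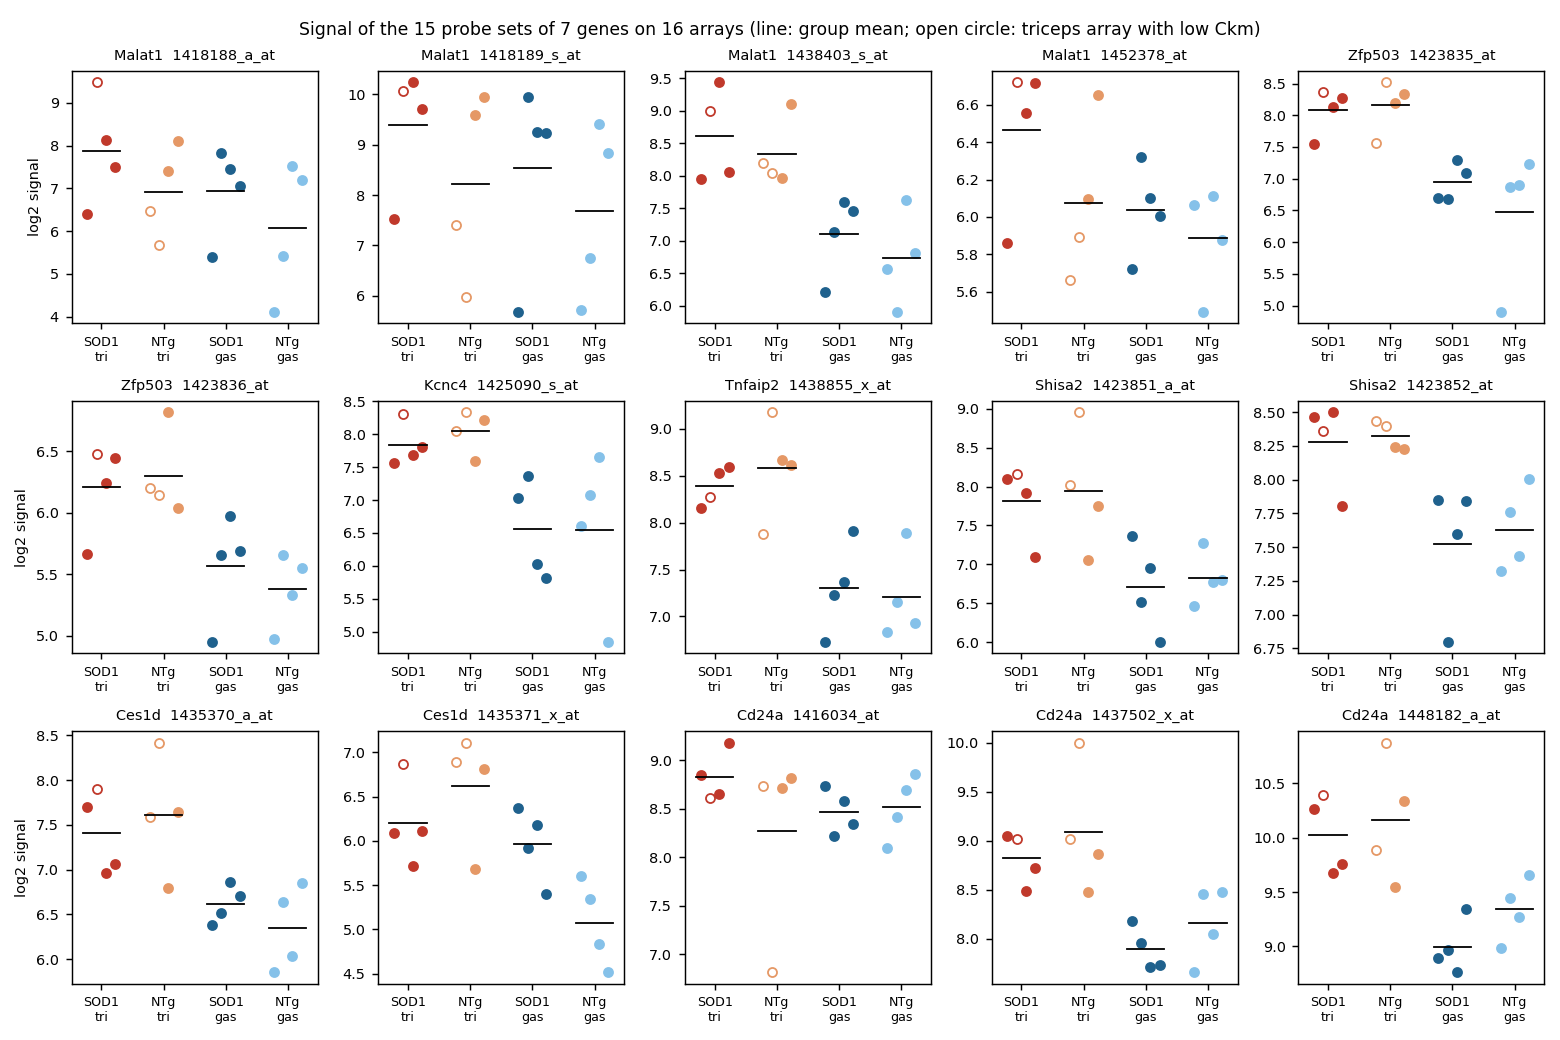
Log2 signal (vertical axis) of the 15 probe sets on the 16 arrays, in the order SOD1-G93A triceps, NTg triceps, SOD1-G93A gastrocnemius and NTg gastrocnemius. Lines are group means and open circles are the 3 triceps arrays with low Ckm. The triceps points lie above all gastrocnemius points for Malat1 1438403_s_at, Zfp503 1423835_at and Cd24a 1437502_x_at, and the genotypes overlap within each muscle in every panel.

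Malat1 (chromosome 19, 5795690 to 5802672, build GRCm38.p6) showed the largest difference of any tested probe set. Probe set 1438403_s_at read 7.95, 9.0, 9.44 and 8.06 in SOD1-G93A triceps and 8.20, 8.05, 7.97 and 9.11 in NTg triceps. It read 6.22, 7.13, 7.59 and 7.46 in SOD1-G93A gastrocnemius and 6.57, 5.91, 7.63 and 6.81 in NTg gastrocnemius. Every triceps array was therefore above every gastrocnemius array, with no genotype set apart within a muscle. The mean difference was 1.56 ± 0.71 (SD, n = 8 mice), or 2.94-fold, and the single mice lay between 0.34 and 2.30. Without the 3 mice with a low-Ckm triceps array it was 1.36 ± 0.85 (n = 5).

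Other probe sets of Malat1 gave a less even picture. Triceps exceeded gastrocnemius by 0.90 ± 0.80 for 1418188_a_at and by 0.70 ± 0.88 for 1418189_s_at, in 7 of 8 mice each. The dim 1452378_at, below the level for testing, differed by 0.31 ± 0.39 and was higher in 6 mice. In 1418188_a_at the difference shrank to 0.59 in the 5 mice without a low-Ckm array, more than 1.5 times less, whereas in 1418189_s_at it was 0.92 there. NTg mouse 2 ran against the rest in 1418189_s_at, with 5.98 in triceps and 6.75 in gastrocnemius.

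Animals differed more than muscles in 1418189_s_at. SOD1-G93A triceps read 7.53, 10.07, 10.24 and 9.71 and NTg triceps 7.40, 5.98, 9.58 and 9.95. SOD1-G93A gastrocnemius read 5.68, 9.95, 9.26 and 9.22 and NTg gastrocnemius 5.71, 6.75, 9.41 and 8.84. Mice numbered 1 of either genotype and NTg mouse 2 were low in both muscles, and the other 5 mice were above 8.8 throughout. The SD within groups was 1.72, the second largest of the 4637 tested probe sets, whose median was 0.278. Probe set 1418188_a_at followed it closely over the 16 arrays (Pearson r = 0.924) and also had a wide spread (SD 1.27, rank 8), while 1438403_s_at followed it less (r = 0.602). What the replicate numbers 1 and 2 share is not given in the labels, and the part of RNA quality or array handling was not tested.

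**Figure D2:**
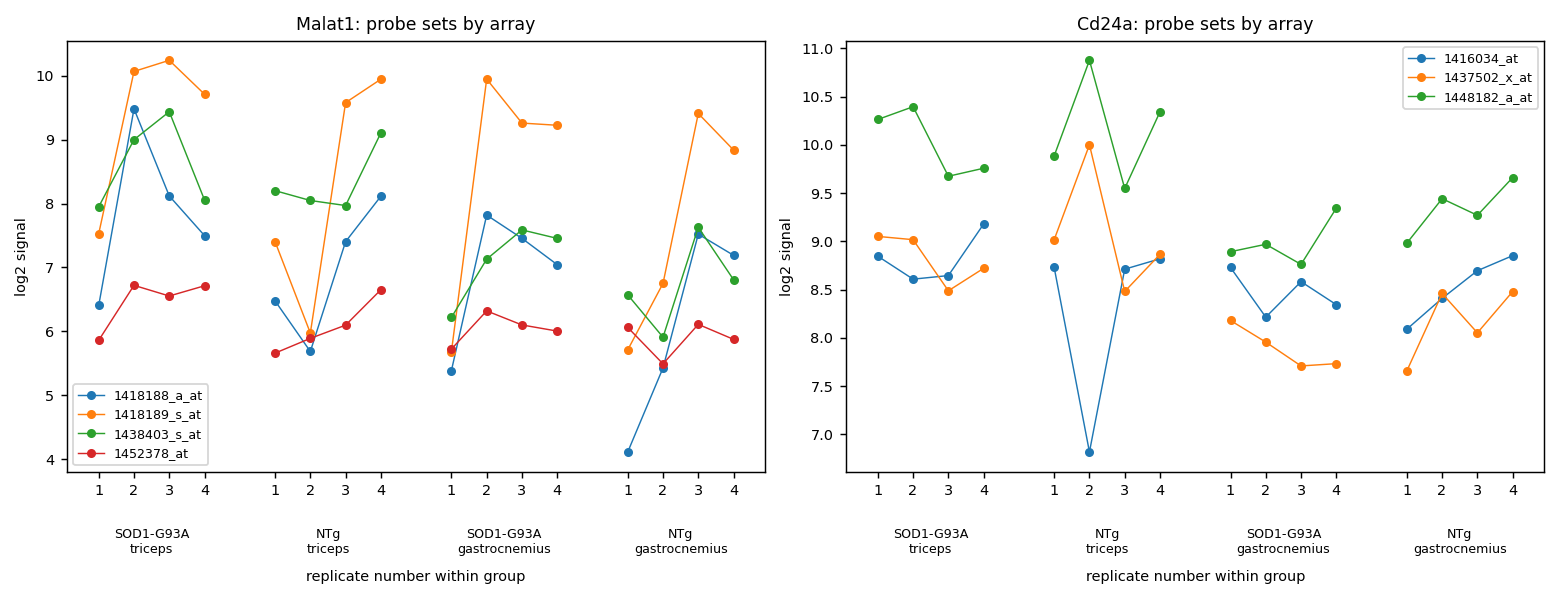
Log2 signal (vertical axis) of the 4 Malat1 probe sets, left, and the 3 Cd24a probe sets, right, on each array, by replicate number within the 4 groups. Malat1 1418188_a_at and 1418189_s_at dip together in replicate 1 of every group and in NTg replicate 2, and Cd24a 1416034_at drops to 6.82 on the NTg triceps array 2, where the other Cd24a probe sets peak.

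Zfp503 (chromosome 14, 21983959 to 21989601) had the next largest difference. Probe set 1423835_at read 7.54, 8.36, 8.13 and 8.27 in SOD1-G93A triceps and 7.56, 8.52, 8.19 and 8.34 in NTg triceps. The 4 arrays of SOD1-G93A gastrocnemius read 6.70, 6.67, 7.30 and 7.10, and those of NTg gastrocnemius 4.90, 6.88, 6.90 and 7.23. The muscles did not overlap, and replicate 1 was the lowest triceps array in both genotypes and the lowest array of all in NTg gastrocnemius. The mean difference was 1.41 ± 0.60 (n = 8), 2.65-fold, and 1.05 ± 0.20 in the 5 mice without a low-Ckm array. The dimmer 1423836_at pointed the same way in 8 of 8 mice, by 0.78 ± 0.41. Over the arrays it correlated with the brighter one at r = 0.833, which includes the muscle difference, and at 0.562 in deviations from the 4 group means.

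Kcnc4 (chromosome 3, 107438298 to 107460287), read by 1425090_s_at alone, had a narrow range in triceps and a wide one in gastrocnemius. SOD1-G93A triceps read 7.57, 8.31, 7.69 and 7.80 and NTg triceps 8.05, 8.33, 7.60 and 8.21. SOD1-G93A gastrocnemius read 7.03, 7.37, 6.03 and 5.81 and NTg gastrocnemius 6.61, 7.08, 7.66 and 4.84. The gastrocnemius of NTg mouse 3 lay within the triceps range, which made it the only mouse with a difference below 0 (-0.06), whereas NTg mouse 4 had the widest of all members at 3.37. The mean was 1.39 ± 1.03 (n = 8), 2.62-fold, and 1.5 ± 1.34 without the low-Ckm arrays.

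Tnfaip2 (chromosome 12, 111442450 to 111455018) had the most even difference among the 5 largest of these genes. Probe set 1438855_x_at read 8.16, 8.28, 8.53 and 8.60 in SOD1-G93A triceps and 7.88, 9.18, 8.67 and 8.61 in NTg triceps. It read 6.73, 7.23, 7.37 and 7.91 in SOD1-G93A gastrocnemius and 6.84, 7.15, 7.89 and 6.93 in NTg gastrocnemius. The groups of arrays met at a single point, where 1 NTg triceps array (7.88) lay just under the top gastrocnemius arrays. The mean difference was 1.23 ± 0.45 (n = 8), 2.35-fold, with a range over mice of 0.69 to 2.02, and 1.15 ± 0.42 without the low-Ckm arrays. The suffix _x_at marks a probe set in which some probes resemble other sequences, so part of its signal may belong to another transcript.

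The start regions of these 4 genes, which had the largest differences, follow as RefSeq gives them for GRCm38.p6, from 250 bases before the start of transcription to 50 after it, on the gene's strand. Capitals mark the matches to any of 6 short motifs on either strand: the TATA box (TATAAA), the CCAAT box, the GC box (GGGCGG), the E-boxes of the MyoD type (CAGCTG) and of the clock type (CACGTG), and the cAMP response half-site (TGACG). The matches do not overlap each other. They are given so that the letters around these start sites can be set side by side.
Malat1, chr19:5802623-5802922, minus strand: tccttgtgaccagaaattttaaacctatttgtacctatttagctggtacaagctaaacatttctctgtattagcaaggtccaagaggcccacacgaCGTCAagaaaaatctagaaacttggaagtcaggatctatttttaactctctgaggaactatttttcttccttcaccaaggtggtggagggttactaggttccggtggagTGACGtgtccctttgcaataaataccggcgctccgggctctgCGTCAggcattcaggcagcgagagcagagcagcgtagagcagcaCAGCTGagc
Zfp503, chr14:21989552-21989851, minus strand: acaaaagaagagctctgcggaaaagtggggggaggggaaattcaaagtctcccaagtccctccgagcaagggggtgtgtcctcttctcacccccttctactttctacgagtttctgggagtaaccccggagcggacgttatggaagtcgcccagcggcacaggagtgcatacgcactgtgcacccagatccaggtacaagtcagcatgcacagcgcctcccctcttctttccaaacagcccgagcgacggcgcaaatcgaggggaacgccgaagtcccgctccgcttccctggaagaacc
Kcnc4, chr3:107458849-107459148, minus strand: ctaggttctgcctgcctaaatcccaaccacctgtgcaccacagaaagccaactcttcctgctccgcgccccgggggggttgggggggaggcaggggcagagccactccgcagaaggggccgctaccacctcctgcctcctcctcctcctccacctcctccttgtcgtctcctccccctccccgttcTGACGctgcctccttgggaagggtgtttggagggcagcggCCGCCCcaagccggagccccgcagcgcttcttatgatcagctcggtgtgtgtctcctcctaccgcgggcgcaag
Tnfaip2, chr12:111442411-111442710, plus strand: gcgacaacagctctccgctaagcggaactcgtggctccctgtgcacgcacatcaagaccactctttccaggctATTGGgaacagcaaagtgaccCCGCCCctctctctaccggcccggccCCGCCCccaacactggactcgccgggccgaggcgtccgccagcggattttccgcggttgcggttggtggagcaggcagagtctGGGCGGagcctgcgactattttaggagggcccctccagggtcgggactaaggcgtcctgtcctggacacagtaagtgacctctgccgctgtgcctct
The RefSeq table held a start region for 5 of the 7 genes, Shisa2 being the fifth, and that of Kcnc4 lies inside the outer limits of the gene. The region of Tnfaip2 lies mostly inside its gene too, since it begins at 111442411 and the gene at 111442450. Malat1 had 3 TGACG half-sites and 1 CAGCTG, Kcnc4 had 1 TGACG and 1 GGGCGG, and Tnfaip2 had 3 GGGCGG and 1 CCAAT. Zfp503 and Shisa2 had no match to the 6 motifs. None of the motifs was in more than 2 of the 5 regions. Among all 32851 RefSeq start regions of this length, TGACG stood in 20.8%, GGGCGG in 35.7%, CCAAT in 37.4%, CAGCTG in 16.3%, TATAAA in 13.6% and CACGTG in 7.15%. GC content was 47% for Malat1, 58.3% for Zfp503, 66.7% for Kcnc4, 64.3% for Tnfaip2 and 58% for Shisa2, against a median of 52.7%. A match is a description of letters only.

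Shisa2 (chromosome 14, 59625281 to 59631660) was higher in triceps with both of its probe sets. For 1423851_a_at, SOD1-G93A triceps read 8.09, 8.16, 7.92 and 7.09 and NTg triceps 8.02, 8.96, 7.06 and 7.75. SOD1-G93A gastrocnemius read 7.36, 6.51, 6.95 and 6.00 and NTg gastrocnemius 6.46, 7.27, 6.77 and 6.80. The muscles overlapped across mice, in that 1 triceps array of each genotype fell below the highest gastrocnemius array, but triceps was above gastrocnemius within all 8 mice. The difference was 1.12 ± 0.49 (n = 8), 2.17-fold, and 0.81 ± 0.32 without the low-Ckm arrays. In 1423852_at it was 0.73 ± 0.50, with 7 of 8 mice higher, and 0.50 ± 0.40 without those arrays.

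Ces1d (chromosome 8, 93166072 to 93197804) depended more on the low-Ckm arrays than most. Probe set 1435370_a_at read 7.70, 7.90, 6.96 and 7.07 in SOD1-G93A triceps and 7.59, 8.42, 6.80 and 7.64 in NTg triceps. It read 6.38, 6.51, 6.86 and 6.71 in SOD1-G93A gastrocnemius and 5.86, 6.64, 6.04 and 6.86 in NTg gastrocnemius. All 8 mice were higher in triceps, from 0.11 in SOD1-G93A mouse 3 to 1.78 in NTg mouse 2. The mean of 1.03 ± 0.62 (n = 8), 2.04-fold, was 0.66 ± 0.46 in the 5 mice without a low-Ckm array, more than 1.5 times less. The dim 1435371_x_at had a difference of 0.89 ± 0.94, made of 0.23 ± 0.71 in SOD1-G93A mice and 1.55 ± 0.62 in NTg mice. Ces1d has close paralogs in the mouse, so the gene behind the _x_at signal is uncertain.

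Cd24a (chromosome 10, 43579169 to 43584265) differed between its probe sets. For 1448182_a_at, SOD1-G93A triceps read 10.26, 10.40, 9.68 and 9.76 and NTg triceps 9.89, 10.88, 9.55 and 10.34. SOD1-G93A gastrocnemius read 8.89, 8.97, 8.76 and 9.35 and NTg gastrocnemius 8.98, 9.44, 9.27 and 9.66. A single gastrocnemius array, of NTg mouse 4, reached into the triceps range, and the difference was 0.93 ± 0.46 (n = 8), 1.9-fold, with all 8 mice higher. Probe set 1437502_x_at differed by 0.93 ± 0.41 and separated the muscles completely, by the narrow gap between 8.481 in the lowest triceps array and 8.480 in the highest gastrocnemius array. Without the low-Ckm arrays these differences were 0.73 ± 0.43 and 0.69 ± 0.27. The limit given for the _x_at probe set of Tnfaip2 also holds for 1437502_x_at, so part of its signal may belong to another transcript.

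The third Cd24a probe set, 1416034_at, did not show the muscle difference. It read 8.85, 8.61, 8.65 and 9.18 in SOD1-G93A triceps and 8.73, 6.82, 8.71 and 8.82 in NTg triceps. It read 8.73, 8.22, 8.58 and 8.34 in SOD1-G93A gastrocnemius and 8.09, 8.41, 8.70 and 8.85 in NTg gastrocnemius. The mean difference was 0.06 ± 0.74 (rank 1919 of the tested probe sets), and 0.20 ± 0.36 without the low-Ckm arrays. On the NTg triceps array 2 it was at its lowest, while the other Cd24a probe sets were at their highest of all 16 arrays (10.00 and 10.88). Over the arrays it correlated with them at -0.31 and -0.25, and at 0.65 and 0.51 once that array was left out. The other pair correlated at 0.927, which includes the muscle difference, and at 0.80 in deviations from the group means. Lists for other cells that carry Cd24a were also read. The summed signal of 3 genes listed as erythroid was 729 to 1326 in triceps, against 975 to 1678 in gastrocnemius. Tfrc, at log2 9.45 in triceps and 9.83 in gastrocnemius, made most of it. A haemoglobin probe set shared by Hba-a1 and Hba-a2 was not in that sum. It went the other way, higher in triceps by 0.53 in 7 of 8 mice (limma adjusted p = 0.111). The summed signal of 3 genes listed for lymphocytes was 476 to 899 in triceps, against 403 to 759 in gastrocnemius. Most of it came from H2-Aa (log2 8.21 in triceps and 7.90 in gastrocnemius) and Cd74 (7.63 and 7.72). For 6 genes of satellite cells and myogenesis it was 3429 to 4465, against 4066 to 4792. Des, at log2 11.63 in triceps and 11.76 in gastrocnemius, made most of that sum, which was 3429 to 3674 on the low-Ckm arrays. Sums led by so few genes need not follow the number of cells of a type. The part of these cells in the Cd24a values was not tested.

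**Figure D3:**
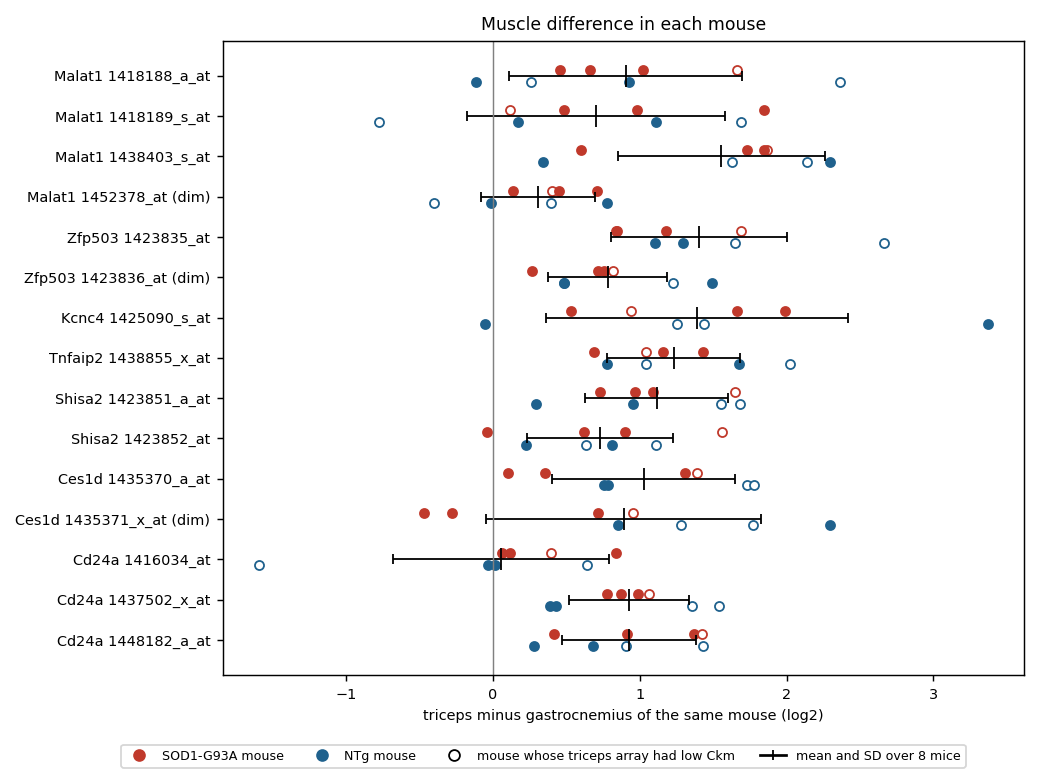
Triceps minus gastrocnemius (horizontal axis, log2) in each of the 4 SOD1-G93A and 4 NTg mice for the 15 probe sets, with the mean and SD over 8 mice. Open circles are the 3 mice with a low-Ckm triceps array. Of the 120 points 110 lie above 0, and the open circles often lie to the right, as in Ces1d 1435370_a_at and Zfp503 1423835_at.

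The mice differed in how far their muscles were apart. The median over the 15 probe sets was 0.84, 1.06, 0.84 and 0.71 in SOD1-G93A mice 1 to 4, and 1.36, 1.43, 0.34 and 0.92 in NTg mice 1 to 4. The 3 mice with a low-Ckm triceps array, SOD1-G93A mouse 2 and NTg mice 1 and 2, thus had the 3 highest medians, and NTg mouse 3 the lowest. In 11 of the 15 probe sets the mean difference was smaller once these mice were left out, and in 12 of 15 it was larger in mice numbered 1 and 2 than in mice 3 and 4. The median over the probe sets was still 0.73 without the low-Ckm arrays, 1.21 in mice 1 and 2 and 0.69 in mice 3 and 4.

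Whether the transgene moved these genes was tested with limma over all 4637 probe sets. None of the 12 tested probe sets passed in triceps, where limma called 0% of all probe sets (Benjamini-Hochberg adjusted p under 0.05). The same held in gastrocnemius (0% called), over both muscles with the mouse as a random block (0%), and when the effect in triceps was set against that in gastrocnemius (0%). At an unadjusted p under 0.05, 0 of the 12 passed in each comparison, against 118, 103, 85 and 86 of the 4637. The 12 probe sets split into 4 above and 8 below 0 in triceps, 7 and 5 in gastrocnemius, and 6 and 6 over both muscles. Their limma adjusted p lay between 0.994 and 0.999 in all 4 comparisons. The 2 genotypes overlapped within each muscle in all 15 probe sets, whereas 0.949% of all tested probe sets did not overlap in triceps and 2.7% did not in gastrocnemius.

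**Figure D4:**
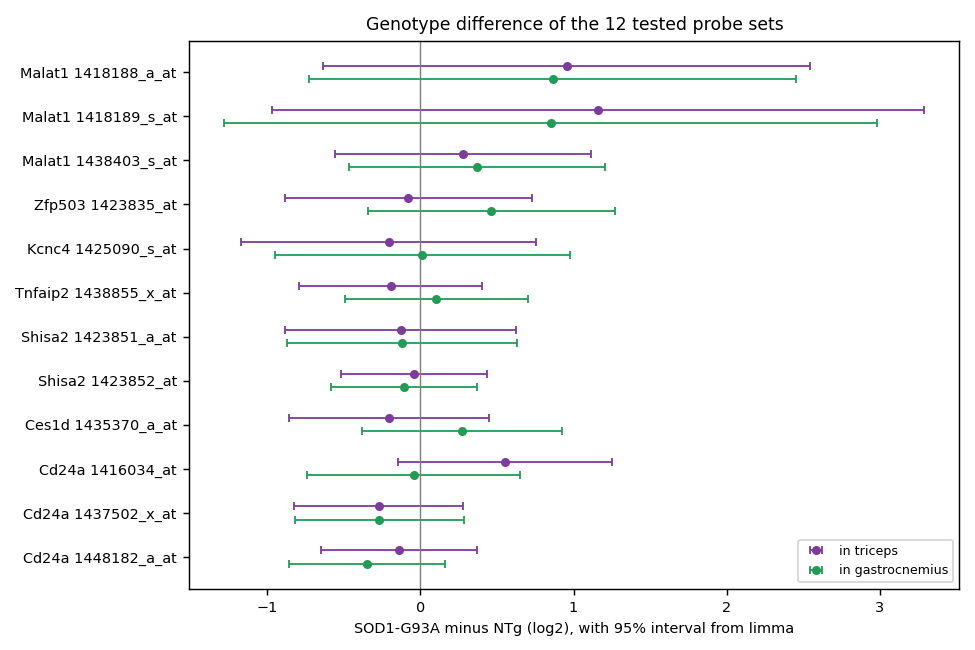
SOD1-G93A minus NTg (horizontal axis, log2) with 95% limma intervals for the 12 tested probe sets, in triceps and in gastrocnemius. Every interval includes 0, and those of Malat1 1418189_s_at are the widest, from -0.97 to 3.29 in triceps.

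Among the 12 tested probe sets, Malat1 1418188_a_at and 1418189_s_at had the largest genotype estimates and the widest errors within each muscle. In triceps 1418189_s_at averaged 9.39 ± 1.26 in SOD1-G93A mice and 8.23 ± 1.87 in NTg mice (SD, n = 4 each), a difference of 1.16 (SE 1.01, 95% interval -0.97 to 3.29, limma adjusted p = 0.994). In gastrocnemius it averaged 8.53 ± 1.93 in SOD1-G93A mice and 7.68 ± 1.74 in NTg mice, a difference of 0.85 (SE 1.01). Over both muscles the difference was 1.01 (SE 0.72). Within mice 1 and 2 the difference over both muscles was 1.85 and within mice 3 and 4 it was 0.17, so it did not hold in both sets. Without the 3 low-Ckm arrays the triceps difference was -0.60, and the direction turned. The steadier 1438403_s_at differed by 0.28 (SE 0.40) in triceps and 0.37 (SE 0.40) in gastrocnemius.

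Within each muscle, the tested probe sets of the other genes had smaller estimates than Malat1 1418189_s_at. Zfp503 (1423835_at) averaged 8.08 ± 0.37 in SOD1-G93A triceps and 8.15 ± 0.42 in NTg triceps, and 6.94 ± 0.31 and 6.48 ± 1.06 in SOD1-G93A and NTg gastrocnemius. Kcnc4 averaged 7.84 ± 0.33 in SOD1-G93A triceps and 8.05 ± 0.32 in NTg triceps, and 6.56 ± 0.76 and 6.55 ± 1.21 in SOD1-G93A and NTg gastrocnemius. Tnfaip2 averaged 8.39 ± 0.21 in SOD1-G93A triceps and 8.58 ± 0.53 in NTg triceps, and 7.31 ± 0.48 and 7.20 ± 0.48 in SOD1-G93A and NTg gastrocnemius. In each of these genes both triceps groups had higher means than both gastrocnemius groups. The genotypes within a muscle differed by less than the SD pooled over the 4 groups (0.62, 0.75 and 0.45 for Zfp503, Kcnc4 and Tnfaip2). For Zfp503 in gastrocnemius the difference, 0.46, was larger than the SD of the SOD1-G93A group alone (0.31).

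For Shisa2 (1423851_a_at) the genotype difference was -0.13 (SE 0.36) in triceps and -0.12 (SE 0.36) in gastrocnemius. Ces1d (1435370_a_at) differed by -0.20 (SE 0.31) and 0.27 (SE 0.31). Cd24a (1448182_a_at) differed by -0.14 (SE 0.24) and -0.35 (SE 0.24). The 95% intervals of these estimates all included 0, which does not show that the genotypes are alike. The interval did not include 0 for the dim Ces1d 1435371_x_at in gastrocnemius, which read 6.37, 5.92, 6.18 and 5.40 in SOD1-G93A gastrocnemius and 5.61, 5.34, 4.83 and 4.52 in NTg gastrocnemius. These groups overlap at a single pair of arrays, and the difference was 0.89 (SE 0.35, 95% interval 0.15 to 1.64), with a limma adjusted p of 0.999 when all 7729 probe sets were tested. For this probe set the genotype effect in triceps minus that in gastrocnemius was -1.32 (SE 0.50). Its 95% interval, -2.37 to -0.27, did not include 0 either, and the limma adjusted p over all 7729 probe sets was again 0.999.

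The genes did not vary as one block among themselves. Taking the brightest probe set of each and its deviations from the 4 group means over 16 arrays, Ces1d and Cd24a moved most alike (Pearson r = 0.883, and 0.826 without the low-Ckm arrays). The order of the other pairs depended on those arrays. Zfp503 and Tnfaip2 were at 0.516 with them and 0.449 without, Malat1 and Zfp503 at 0.496 and 0.617, and Malat1 and Tnfaip2 at 0.393 and 0.708. Kcnc4 and Shisa2 ran opposite at -0.493 and -0.548. These points share arrays, so the coefficients are descriptions with no test. Malat1 was read here by 1418189_s_at, with its wide spread within groups (SD 1.72). The probe set with the largest muscle difference, 1438403_s_at, followed it at r = 0.707 in these deviations and at 0.602 over the 16 values themselves.

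Each gene had other genes whose 16 values resembled it more than those of the other members did. These values hold the muscle difference that chose the members, so genes with a large muscle difference can rank high. Malat1 (1418189_s_at) lay nearest to Nfic (r = 0.932), Pja2 (0.883) and Tcf4 (0.871). Zfp503 was nearest to Wnk1 (0.872) and then to its fellow member Tnfaip2 (0.833), followed by Tmcc2 (0.819). Kcnc4 was nearest to Mtfr1l (0.893), G3bp2 (0.886) and Tbx15 (0.816), and Tnfaip2 to Anapc5 (0.89), Pkdcc (0.886) and Wnt4 (0.883). Shisa2 resembled Ndrg2 (0.912), Lrrc59 (0.877) and Ets2 (0.863). Ces1d resembled Hint1 (0.935), Pum2 (0.903) and Lgalsl (0.896), and Cd24a resembled Lgalsl (0.906), Ubxn2a (0.905) and Hint1 (0.901), so 2 of the 3 nearest genes of Ces1d and Cd24a were shared. With the group means taken out, Malat1 still lay nearest to Nfic (0.938) and Pja2 (0.898), and Ces1d to Ddx17 (0.916) and Rps6ka3 (0.909). Zfp503 then lay nearest to Cdc42ep3 (0.879), Kcnc4 to Apoe (0.812) and Tnfaip2 to Macrod1 (0.834). Shisa2 was nearest to Lrrc59 (0.869) and Cd24a to H2az1 (0.883). By that measure Zfp503 and Tnfaip2 were at 0.516.

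Lists of genes that work beside one of the 7 were read in the same way. Between the muscles limma called 1.57% of all tested probe sets higher in triceps and 2.11% lower, 3.69% in all. With the mouse as a term it called 3.23% higher and 3.62% lower, 6.86% in all. On the 6 lists, 31 of 60 tested genes were above 0, near the 51% of all tested probe sets, and 2 were called higher and 3 lower. Of 19 tested RNAs and proteins of nuclear speckles and paraspeckles, the setting of Malat1, 0 were called in either direction, and their median difference was 0.02. The paraspeckle RNA Neat1 averaged 10.17 in triceps and 10.50 in gastrocnemius, lower in 8 of 8 mice, a difference of -0.33 (SE 0.12, limma adjusted p = 0.135). The splicing factor Srsf1 was higher in 8 of 8 mice by 0.52 (SE 0.19, limma adjusted p = 0.135). With the mouse as a term the limma adjusted p was 0.0254 for Neat1 and 0.038 for Srsf1, and without the low-Ckm arrays it was 0.158 and 0.511.

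Of 31 limb position genes listed beside Zfp503, 3 were tested and 1 was called (median -0.07). This was the limb and muscle transcription factor Tbx15, at 8.39 in triceps and 7.73 in gastrocnemius (difference 0.66, SE 0.12, limma adjusted p = 0.00331, and 0.0122 with the mouse as a term). A second, dim probe set of Tbx15 pointed the other way (-0.32) and was not tested. The other tested genes, Hoxd8 (-0.36, higher in triceps in 2 of 8 mice) and Lbx1 (-0.07, in 3 of 8), were lower on average and not called. Of 8 tested ion channels of the fibre membrane, 0 were called (median 0.05). Kcnc1, which encodes another Kv3 channel, was higher in 8 of 8 mice by 0.73 (SE 0.23, limma adjusted p = 0.0867, 0.0278 with the mouse as a term and 0.096 without the low-Ckm arrays).

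Of 8 tested genes of tumour necrosis factor and NF-kappaB signalling, listed beside Tnfaip2, 0 were called (median 0.03). Cebpd, a transcription factor of inflammation and stress, had the largest difference, 0.93 (SE 0.43, limma adjusted p = 0.217, 0.00953 with the mouse as a term and 0.635 without the low-Ckm arrays). Of 9 tested WNT and FGF genes, the pathway of Shisa2, 1 was called higher and 1 lower (median 0.29). The WNT receptor Fzd4 rose by 0.76 (SE 0.19, limma adjusted p = 0.0311, and 0.0143 with the mouse as a term). The secreted WNT antagonist Sfrp4 fell by 0.76 (SE 0.18, limma adjusted p = 0.0284, and 0.0322 with the mouse as a term). That call was lost without the low-Ckm arrays (limma adjusted p = 0.15).

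Of 13 tested carboxylesterase and lipid turnover genes, listed beside Ces1d, 0 were called higher and 2 lower (median -0.16). Lpl, which releases fatty acids from circulating triglyceride, was at 10.93 in triceps and 11.63 in gastrocnemius, a difference of -0.69 (SE 0.10, limma adjusted p = 0.000197). Fabp3, a fatty acid carrier of oxidative fibres, was at 10.35 in triceps and 11.26 in gastrocnemius, a difference of -0.91 (SE 0.17, limma adjusted p = 0.00374). With the mouse as a term the limma adjusted p was 0.000411 for Lpl and 3.79e-05 for Fabp3. Both were lower in triceps in 8 of 8 mice, opposite in direction to Ces1d. The adipocyte list had 1 of 8 tested genes called, Lpl again, lower in triceps, and 2 called higher and 2 lower with the mouse as a term. Those higher were lipid synthesis genes, Fasn by 0.94 (SE 0.29, 7 of 8 mice, limma adjusted p = 0.0805, and 0.00758 with that term) and Thrsp by 0.60 (SE 0.23, 8 of 8 mice, 0.151 and 0.0115). Without the low-Ckm arrays their limma adjusted p was 0.352 and 0.437. The list's summed signal was 5762 to 8997 in triceps, against 7157 to 11050 in gastrocnemius. None of the genes on these lists was called between the genotypes in either muscle.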

How the data were processed

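The authors deposited 1 table of log2 expression values for 7729 probe sets and 16 arrays, made with MAS5 per the submitters' processing notes. Its version, its scaling target and the choice of probe sets are not given in the sources, and base 2 was read from the values, which run from -0.77 to 14.81. The values were used as deposited. Symbols came from the platform annotation, with 7053 probe sets having 1 symbol, 330 several and 346 none. Array medians lay between 7.10 and 7.26. Arrays have no read depth, and their number limits the precision.

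Probe sets with a mean above the 40th percentile were tested with limma 3.58.1 in R 4.3.3: lmFit with 4 group means, eBayes with an intensity trend, and Benjamini-Hochberg adjustment, called under 0.05. For the genotype comparison over both muscles the mouse was a random block (correlation 0.185). The fit of triceps against gastrocnemius did not pair the muscles of a mouse, except where the mouse is named as a term. The design text gives both muscles of 4 mice per genotype, and replicate numbers were taken as the mouse. The 2 arrays of a mouse correlated at 0.136 to 0.388 in their deviations from group means. For NTg mouse 1 another array correlated better. Arrays of different genotypes with the same number correlated at 0.0335 to 0.373 in triceps and 0.000647 to 0.222 in gastrocnemius. Nothing in the labels says that numbers pair the genotypes, so that pairing was tried only as an alternative. Of each list gene the brightest probe set was used. The fit was tested on simulated data. The members, the lists and the rule for naming genes (all members, the called genes or those of smallest p of each list, the most alike genes, and the largest differences) were chosen with earlier results of these data known.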

Additional observations from a re-analysis of the deposited data

Results flagged for a closer look

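Of 60 groups of 4 arrays examined (15 probe sets in 4 groups), 3 held an array far from the other 3 of its group, and chance alone gives about 1 in 20. Malat1 1418189_s_at was at 5.68 in SOD1-G93A gastrocnemius replicate 1, where the others were between 9.22 and 9.95, and the triceps array of the same mouse was the lowest of its group too (7.53). Zfp503 1423835_at was at 4.90 in NTg gastrocnemius replicate 1, against 6.88 to 7.23 in the others, which gave that mouse the widest muscle difference for this gene, 2.66. Cd24a 1416034_at was at 6.82 in NTg triceps replicate 2, against 8.71 to 8.82 in the others. Without that array the genotype difference of Cd24a 1416034_at in triceps was 0.07 in place of 0.55.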

How the results depend on the processing

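The muscle difference of the 15 probe sets had a median of 0.93, which lay between 0.69 (within mice 3 and 4) and 1.21 (within mice 1 and 2) under all alternatives, and between 0.87 and 1.02 when a mouse was left out. The number of all probe sets called between the muscles, 171 (73 higher in triceps, 98 lower), depended more on the setting. It was 103 (31 and 72) without the 3 low-Ckm arrays, 436 with a term for mice numbered 1 and 2 against mice numbered 3 and 4, 364 within mice 1 and 2, 62 within mice 3 and 4, and 99 to 272 when an array was left out. With the mouse as a term, as replicate block, it was 318 (150 and 168). Fewer arrays enter the within-set fits. The cause of the other shifts was not tested.

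Genotype calls stayed at 0 except within mice 3 and 4, with 1 in triceps and 4 over both muscles, none of them a probe set of the 7 genes. A mouse term cannot be fitted to a genotype difference, so there the replicate block was the replicate number, and the mouse only where the effect was set against the other muscle. It gave 0 calls in each of the 4 comparisons (limma, unadjusted p under 0.05: 268 in triceps, 151 in gastrocnemius, 233 over both muscles and 150 between the muscles). Over 1192 values of the members under alternatives, 0 passed the threshold (smallest limma adjusted p = 0.692), and 102 changed sign. Dim probe sets, groups of 4 and the unstated scaling limit what can be read here.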

Other observations

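Below the brightness level of the tests, larger differences towards triceps than those of the 7 genes occurred, with wide errors over the 8 mice. The 10 largest belonged to Rffl (2.36), Pik3r1 (2.03), Atp1b4 (1.80), Hoxa3 (1.79), Wnt5a (1.76), Mndal (1.75), Irx5 (1.68), Zfp975 (1.66), Uap1 (1.60) and Rcbtb2 (1.59), and the SDs over mice ran between 1.02 and 1.92. Xist, the noncoding RNA of the inactive X chromosome, differed by 1.11 with 1427262_at and by 0.09 with its other tested probe set, 1436936_s_at. Tbx15 likewise differed by 0.66 with the tested 1418755_at and by -0.32 with the dim 1422195_s_at.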
